A study of Mus musculus with 31 samples.

Results

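Expression of 10 genes of fibroblasts and of the connective tissue they build was followed in scraped mouse colon mucosa. They were 10 of the 18820 genes that a single-gene probe set of the array measured: Col1a1, Col1a2 and Col3a1, Dcn and Lum, Pdgfra, Pdpn and Antxr1, Fbln5, and Cpxm2. The genes had been chosen by their role and with earlier results of these arrays known, and the probe sets were selected on their mean level. The rule was to take, for each gene, the probe set naming that gene alone that had the highest mean over the 31 arrays. Each gene had exactly 1 such probe set, so the rule left nothing to choose. Of the 10 genes, 9 passed the filter on dim probe sets (log2 of at least 4.32, an intensity of 20, on at least 3 arrays) and were among the 12795 genes tested. Lum did not pass, and its values are given as a description.

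Connective tissue of the gut wall is laid down mainly by fibroblasts. They secrete collagen chains that assemble into fibrils, proteoglycans that coat and space those fibrils, and elastic fibre proteins that let the tissue recoil. In the colon, fibroblasts lie in the lamina propria between the crypts and as a sheath just under the epithelium, where they also supply growth factors to the stem cells, and they lie more densely in the submucosa below. RNA from scraped epithelium therefore carries their transcripts beside a much larger epithelial share.

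The mice were 13-week-old male C57Bl/6J animals. They were fed palm oil-based semi-synthetic diets with 45% (HFD) or 10% (LFD) of energy as fat, for 2 weeks before the infusions. On 6 consecutive days each mouse was given 80 µL of saline into the rectum, either with 100 mM sodium butyrate, sodium propionate or sodium acetate or alone. These are short-chain fatty acids, the products of bacterial fermentation in the colon, and differ in the length of the carbon chain. The epithelial lining of the colon, freed of adhering fat, was scraped off 4 h after the last infusion. Each group had 6 mice per the labels, which do not say which mice the arrays hold. The arrays comprised 4 each for butyrate, propionate, acetate and saline on HFD, and 4 each for butyrate, propionate and saline with 3 for acetate on LFD. Values are log2 intensities, and the level of one gene cannot be set against that of another because each has its own probes. P-values for differences between groups set them against the spread between arrays of the same group. In such bulk samples, fewer fibroblasts and less RNA per fibroblast cannot be told apart.

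The array medians lay between 5.14 and 5.19, and arrays of the same group correlated at 0.987 to 0.994 over all genes. The 12 colonic epithelial markers averaged 11.6 to 11.9 on every array, and of 18 fibroblast markers other than the 10 genes, 12 passed the filter. Smooth muscle markers were highest on saline HFD replicates 1 and 2, with means of 6.75 and 6.56, against 4.90 to 6.02 on the other arrays. Small-intestinal lipid absorption markers stood apart on saline LFD replicates 2 and 3, propionate LFD replicate 2 and saline HFD replicate 2, with means of 7.73 to 8.10. Values without these arrays are given beside the results that they moved by more than the SD within groups.

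The 2 chains of type I collagen, Col1a1 and Col1a2, and Col3a1, the chain of type III collagen, are the fibrillar collagens of this tissue. Their genes lie on chromosomes 11, 6 and 1 of GRCm38.p6 (94936224 to 94953042, 4505618 to 4541543 and 45311538 to 45349706). The highest values of all 31 arrays for these 3 genes were on butyrate HFD replicate 1. Col1a1 read 7.30, 5.97, 7.03 and 5.77 in butyrate HFD colons, against 5.87, 5.89, 5.93 and 6.29 in saline HFD colons. Col1a2 read 6.69, 5.67, 6.50 and 5.31 in butyrate HFD colons, against 5.31, 5.48, 5.17 and 5.74 in saline HFD colons. Col3a1 read 6.20, 5.42, 5.94 and 5.07 in butyrate HFD colons, against 5.31, 5.27, 5.16 and 5.55 in saline HFD colons. For each collagen, butyrate replicates 1 and 3 lay above all saline arrays, replicate 4 lay below all of them for Col1a1 and Col3a1 and within them for Col1a2, and the groups overlapped. The SD within the butyrate HFD group was 0.763 for Col1a1, 0.659 for Col1a2 and 0.510 for Col3a1 (n = 4), the largest of the 8 groups for each. The other groups had means of 6.00 to 6.25 for Col1a1, 5.42 to 5.74 for Col1a2 and 5.31 to 5.44 for Col3a1. In propionate LFD colons, replicate 3 was the high one for all 3 collagens, at 6.62, 6.27 and 5.71. The fitted difference of butyrate from saline on HFD was 0.52 ± 0.248 (SE) for Col1a1 (1.43-fold), 0.62 ± 0.226 for Col1a2 and 0.34 ± 0.170 for Col3a1, with adjusted p = 1 in limma for each. Leaving out 1 array at a time, these differences ran from 0.26, 0.41 and 0.16 without butyrate HFD replicate 1 to 0.77, 0.87 and 0.54 without butyrate HFD replicate 4.

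**Figure D1:**
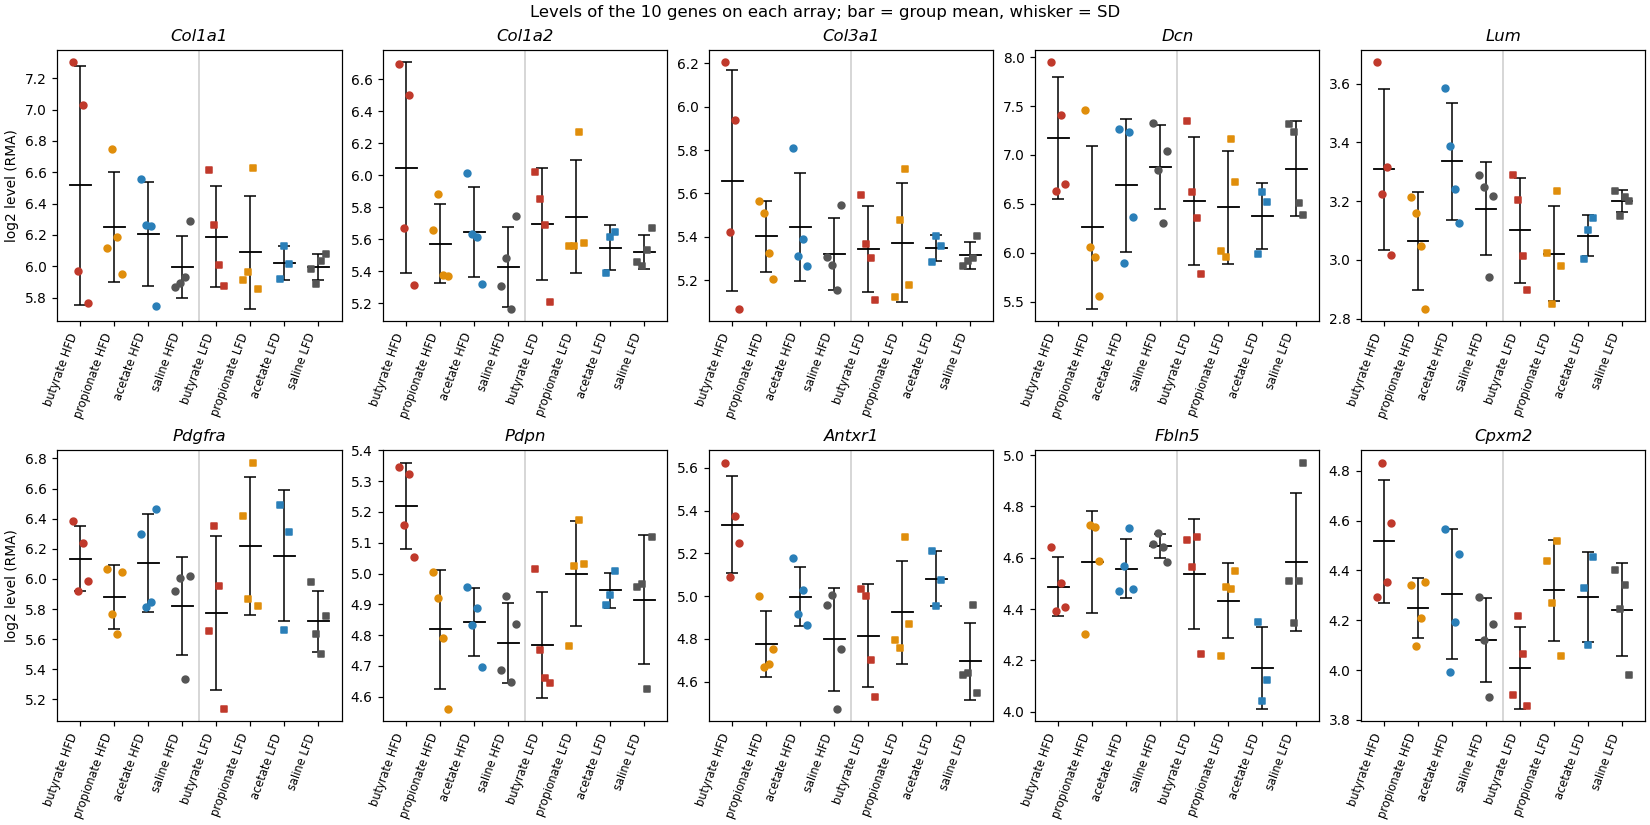
Log2 intensity of the 10 genes (one panel each) on all 31 arrays, by group on the x axis, with circles for HFD and squares for LFD; within a group the points run by replicate number and the bar is the group mean. In butyrate HFD colons Col1a1 runs from 5.77 to 7.30, overlapping saline HFD at 5.87 to 6.29, while Antxr1 at 5.09 to 5.62 lies above saline HFD at 4.47 to 5.01.

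Dcn and Lum encode decorin and lumican, small leucine-rich proteoglycans that bind collagen fibrils and limit their thickness. They lie beside each other on chromosome 10 (97479500 to 97518163 and 97565501 to 97572703). Dcn read 7.95, 6.63, 7.41 and 6.70 in butyrate HFD colons, 7.46, 6.06, 5.95 and 5.56 in propionate HFD colons, 7.27, 5.89, 7.23 and 6.36 in acetate HFD colons, and 7.32, 6.84, 6.31 and 7.04 in saline HFD colons. It was the most variable of the 10 genes between arrays of a group, with a pooled SD of 0.603, against a median of 0.148 over all genes tested. On LFD its group means were 6.53 ± 0.651 with butyrate, 6.46 ± 0.582 with propionate, 6.37 ± 0.337 with acetate and 6.86 ± 0.482 with saline (SD, n = 4 each, 3 for acetate). The Dcn arrays overlapped in every pair of groups compared. Butyrate differed from propionate on HFD by 0.91 ± 0.390 (1.88-fold), with a 95% interval of 0.11 to 1.71 and adjusted p = 0.22 in limma. Without propionate HFD replicate 1, whose 7.46 was the high value of its group, the difference was 1.31 with adjusted p = 0.0453. From saline, butyrate differed on HFD by 0.29 ± 0.390, and by 0.04 without butyrate HFD replicate 1 or 0.50 without saline HFD replicates 1 and 2. Lum stayed below the filter on all 31 arrays, at 2.83 to 3.67. Its highest reading, 3.67, was on butyrate HFD replicate 1, and its lowest on propionate HFD replicate 4. At such intensities a change in the transcript is not well resolved.

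Pdgfra, Pdpn and Antxr1 encode cell-surface proteins. Pdgfra is the alpha receptor for platelet-derived growth factor and marks gut fibroblasts, among them those under the epithelium. Pdpn, podoplanin, is a membrane glycoprotein of stromal fibroblasts and lymphatic endothelium. Antxr1 is a receptor that binds collagen as well as the anthrax toxin and is found on fibroblasts and vessels. Their genes lie on chromosomes 5 (75151322 to 75198206), 4 (143267409 to 143299564) and 6 (87133853 to 87335809). Pdpn and Antxr1 were read at low levels, with means of 4.91 and 4.92 over the 31 arrays, against the filter of 4.32.

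Pdpn read 5.35, 5.16, 5.32 and 5.05 in butyrate HFD colons, against 4.69, 4.93, 4.65 and 4.84 in saline HFD colons. The 4 butyrate arrays lay above all 4 saline arrays, and also above propionate HFD (4.56 to 5.0) and acetate HFD (4.70 to 4.96). The difference from saline was 0.45 ± 0.112 (1.36-fold), with a 95% interval of 0.22 to 0.67 and adjusted p = 0.818 in limma. On LFD Pdpn averaged 4.77 ± 0.172 with butyrate, 5.0 ± 0.171 with propionate, 4.95 ± 0.0570 with acetate and 4.92 ± 0.208 with saline (SD, n = 4 each, 3 for acetate). Butyrate differed from saline there by -0.15, with an interval of -0.38 to 0.08.

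Antxr1 read 5.62, 5.09, 5.37 and 5.25 in butyrate HFD colons, against 4.96, 5.01, 4.47 and 4.75 in saline HFD colons. The groups did not overlap, and propionate HFD, at 4.67 to 5.0, also lay wholly below butyrate, while acetate HFD reached 5.18. The difference from saline was 0.54 ± 0.138 (1.45-fold), with an interval of 0.25 to 0.82 and adjusted p = 0.818. Without saline HFD replicates 1 and 2, high in smooth muscle markers, it was 0.72. On LFD Antxr1 averaged 4.81 ± 0.242 with butyrate, 4.92 ± 0.240 with propionate, 5.08 ± 0.129 with acetate and 4.69 ± 0.181 with saline. Acetate differed from saline there by 0.39 ± 0.149 (interval 0.08 to 0.69), with adjusted p = 1, and the 2 groups overlapped.

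Pdgfra had a different order of groups. Its highest mean was 6.22 ± 0.459 with propionate on LFD, followed by acetate on LFD (6.15 ± 0.436), butyrate on HFD (6.13 ± 0.215) and acetate on HFD (6.10 ± 0.325). The lowest was saline on LFD, at 5.72 ± 0.204, next to butyrate on LFD at 5.77 ± 0.512 and saline on HFD at 5.82 ± 0.327. These neighbours differed by less than the SD within the groups. In propionate LFD colons the arrays read 6.42, 5.87, 6.77 and 5.82, against 5.98, 5.64, 5.50 and 5.75 in saline LFD colons. The 2 groups overlapped, and the difference of 0.50 ± 0.230 (interval 0.03 to 0.97) had adjusted p = 0.972.

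Fbln5 encodes fibulin-5, a secreted protein needed to assemble elastic fibres (chromosome 12, 101746565 to 101819119). It was measured near the filter, reaching log2 4.32 on 26 of 31 arrays. Its highest mean, 4.64 ± 0.0470, was with saline on HFD and its lowest, 4.17 ± 0.160, with acetate on LFD. Fbln5 read 4.35, 4.04 and 4.12 in acetate LFD colons, against 4.51, 4.35, 4.51 and 4.97 in saline LFD colons and 4.47, 4.57, 4.72 and 4.48 in acetate HFD colons. The 3 acetate LFD arrays lay below all acetate HFD arrays, and one of them tied with the lowest saline LFD array to the second decimal. The difference of acetate from saline on LFD was -0.41 ± 0.129, with adjusted p = 1, and that of HFD from LFD under acetate was 0.39 ± 0.129, with adjusted p = 0.629. Fbln5 had been singled out for this pattern on these arrays before, so both are descriptions.

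Cpxm2 encodes a secreted member of the carboxypeptidase family (chromosome 7, 132032687 to 132154765). It too was near the filter, which it reached on 13 of 31 arrays. Cpxm2 read 4.29, 4.83, 4.35 and 4.59 in butyrate HFD colons, against 4.29, 4.12, 3.89 and 4.18 in saline HFD colons. The lowest butyrate array exceeded the highest saline array only beyond the second decimal. The difference was 0.40 ± 0.135 (1.32-fold), with an interval of 0.12 to 0.67 and adjusted p = 1. Unlike for the collagens, the high arrays were replicates 2 and 4. On LFD it read 3.90, 4.22, 4.07 and 3.85 with butyrate, against 4.40, 4.25, 4.34 and 3.98 with saline, a difference of -0.23 ± 0.135 (interval -0.51 to 0.04), and the groups overlapped.

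Among the 10 genes, butyrate on HFD had the highest of the 8 group means for Col1a1, Col1a2, Col3a1, Dcn, Pdpn, Antxr1 and Cpxm2. The genes were chosen with earlier results of these arrays known, and the collagens varied together. This order is therefore a description, and how often it holds over all genes was not counted. The highest was acetate on HFD for Lum, propionate on LFD for Pdgfra and saline on HFD for Fbln5. The share of a gene's variance that lay between the 8 groups was 52.3% for Pdpn and 55.6% for Antxr1, against a median of 26.5% over all genes tested. For the collagens it was 19.1% to 26.7%, so most of their variance lay between arrays of the same group.

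The comparison of butyrate with saline on HFD asks what butyrate did on the fat-rich diet. None of the 9 genes tested passed adjusted p 0.05, as none of all 12795 genes did (0%). By unadjusted p under 0.05 there were 5 of the 9 (Col1a1, Col1a2, Pdpn, Antxr1 and Cpxm2) and 513 of all genes. The 9 had been chosen with earlier results of these arrays known. Their counts beside those of all genes, here and in the other comparisons, are therefore descriptions. Of the 9 differences 8 were above 0, with a median of 0.40, beside a median of 0.02 over all genes, of which 57.2% were above 0. Fbln5 was the exception, at -0.16 ± 0.120. Without butyrate HFD replicate 1 the median was 0.26, the lowest of the values leaving out 1 array, and without replicate 4 it was 0.50, the highest. The arrays of the 2 groups did not overlap, butyrate higher, for 3 of the 9 genes (Pdpn, Antxr1 and Cpxm2), against 1.99% of all genes tested. On LFD the same comparison gave a median of 0.03 (-0.06 without butyrate LFD replicate 2 and 0.11 without replicate 4, and -0.10 without the 4 small-intestinal arrays), with 5 of 9 above 0 and none of the 9 or of all genes called (0%). At unadjusted p under 0.05 it held none of the 9 and 358 of all genes.

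Whether butyrate acted differently on the 2 diets was fitted as an interaction, the butyrate difference on HFD minus that on LFD. It was 0.63 ± 0.191 for Cpxm2 (interval 0.24 to 1.02), 0.59 ± 0.158 for Pdpn (0.27 to 0.92) and 0.42 ± 0.195 for Antxr1 (0.02 to 0.82). The adjusted p was 0.999 for each in limma, and no gene of 12795 was called (0%), with 3 of the 9 and 291 of all genes at unadjusted p under 0.05. The collagens had 0.31 to 0.45, with intervals that include 0. For acetate and propionate all 9 interactions had intervals that include 0, and no gene was called in either (0%). At unadjusted p under 0.05 these held none of the 9 genes, beside 108 of all genes for acetate and 1643 for propionate. Without the 4 arrays high in small-intestinal markers, the Pdpn interaction was 0.77 for butyrate, 0.14 for propionate (-0.04 with them) and 0.21 for acetate (0.04 with them). That of Fbln5 was 0.06 for butyrate (-0.11 with them), 0.28 for propionate (0.09) and 0.50 for acetate (0.33).

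**Figure D2:**
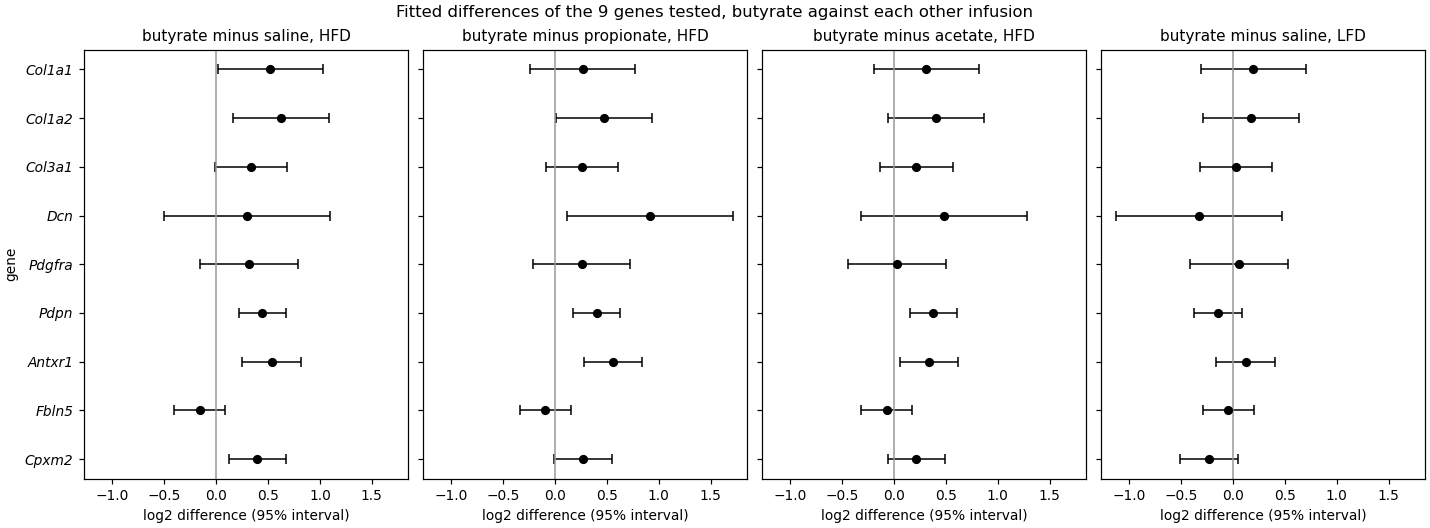
Fitted log2 difference on the x axis with its 95% interval for each of the 9 genes tested (rows). The panels show butyrate against saline, propionate and acetate on HFD, and against saline on LFD. The intervals of Pdpn and Antxr1 lie above 0 in the 3 HFD panels, for example 0.27 to 0.84 for Antxr1 against propionate. In the LFD panel they include 0 (-0.38 to 0.08 for Pdpn and -0.16 to 0.40 for Antxr1). Those of Fbln5 include 0 in every panel.

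Butyrate, propionate and acetate were compared at the same 100 mM on each diet, which makes 3 pairs of acids per diet. Butyrate, the longest of the 3 chains, exceeded propionate on HFD by 0.56 ± 0.138 for Antxr1 (1.47-fold, interval 0.27 to 0.84, adjusted p = 0.0664 in limma) and by 0.40 ± 0.112 for Pdpn (1.32-fold, 0.17 to 0.63, adjusted p = 0.0953). These were the smallest adjusted p-values of the 9 genes in any of the 20 comparisons. None of the 9 passed, beside 8 of 12795 genes (0.0625%), of which 2 were higher and 6, all small RNAs, lower. The median of the 9 was 0.27, beside 0.04 over all genes, with 8 of 9 and 60.2% above 0. It was 0.46 without butyrate HFD replicate 4 and 0.42 without replicate 2. Pdpn and Antxr1 did not overlap between the groups, butyrate higher, against 5.17% of all genes. Col1a1, Col1a2 and Col3a1 differed by 0.27 (-0.24 to 0.77), 0.47 (0.01 to 0.94) and 0.26, and by 0.00, 0.26 and 0.08 without butyrate HFD replicate 1 or 0.52, 0.72 and 0.45 without replicate 4. The call on Pdpn and Antxr1 depended on the setting. With arrays weighted by quality their adjusted p in limma were 0.0378 and 0.0152, where 937 of all 12795 genes were called. Without propionate HFD replicate 1 they were 0.0314 and 0.0240, and without saline LFD replicate 1 that of Antxr1 was 0.0461. In the other direction, that of Antxr1 was 0.19, 0.172 and 0.16 without butyrate HFD replicate 1, 2 or 4, and 0.0803 without replicate 3.

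Butyrate exceeded acetate on HFD by 0.38 ± 0.112 for Pdpn (0.15 to 0.61) and 0.34 ± 0.138 for Antxr1 (0.05 to 0.62), each with adjusted p = 0.996, and the other 7 intervals included 0. No gene of 12795 was called (0%), while 2 of the 9 and 466 of all genes had an unadjusted p under 0.05. Pdpn alone of the 9 did not overlap, against 2.18% of all genes. Propionate and acetate on HFD did not differ detectably in any of the 9 genes. The intervals ran from -0.25 to 0.20 for Pdpn, from -0.50 to 0.06 for Antxr1 and from -1.23 to 0.37 for Dcn, the widest of the 9. A p that misses the threshold does not show that the 2 acids act alike. That pair had no gene called (0%), and none of the 9 but 1686 of all genes at unadjusted p under 0.05.

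On LFD 6 of the 9 genes were lower with butyrate than with propionate. Butyrate minus propionate was -0.45 ± 0.230 for Pdgfra (-0.92 to 0.03), -0.11 for Antxr1 (-0.39 to 0.17), -0.23 ± 0.112 for Pdpn (-0.46 to -0.00) and -0.31 ± 0.135 for Cpxm2 (-0.59 to -0.04), with adjusted p = 0.999 for each of these. Butyrate minus acetate on LFD was 0.37 ± 0.129 for Fbln5 (0.10 to 0.63), with adjusted p = 1. The 3 acid pairs on LFD had no gene called (0%), and none of the 9 genes lay wholly above or below between groups. Of all genes, 2.62% lay wholly above and 2.15% wholly below for propionate against acetate, 1.16% and 1.34% for butyrate against acetate, and 1.18% and 1.65% for butyrate against propionate. At unadjusted p under 0.05 they held 0, 1 and 2 of the 9 genes for propionate over acetate, butyrate over acetate and butyrate over propionate, and 473, 179 and 463 of all genes.

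Acetate and propionate were also each set against saline, sharing those saline arrays with butyrate. On HFD the 9 differences of acetate lay between -0.19 for Dcn and 0.29 for Pdgfra, and those of propionate between -0.62 for Dcn and 0.26 for Col1a1. On LFD they lay between -0.49 for Dcn and 0.44 for Pdgfra with acetate, and between -0.40 for Dcn and 0.50 for Pdgfra with propionate. Fbln5 was at -0.15 with propionate on LFD, and at -0.32 when the 4 arrays with small-intestinal transcripts were left out. Dcn was thus below saline with each acid but butyrate on HFD, where it was at 0.29, and each of these Dcn intervals included 0. No gene was called in the 4 comparisons (0% in each), with 0, 0, 2 and 1 of the 9 genes and 321, 1497, 193 and 487 of all genes at unadjusted p under 0.05, for acetate and propionate on HFD and then on LFD.

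**Figure D3:**
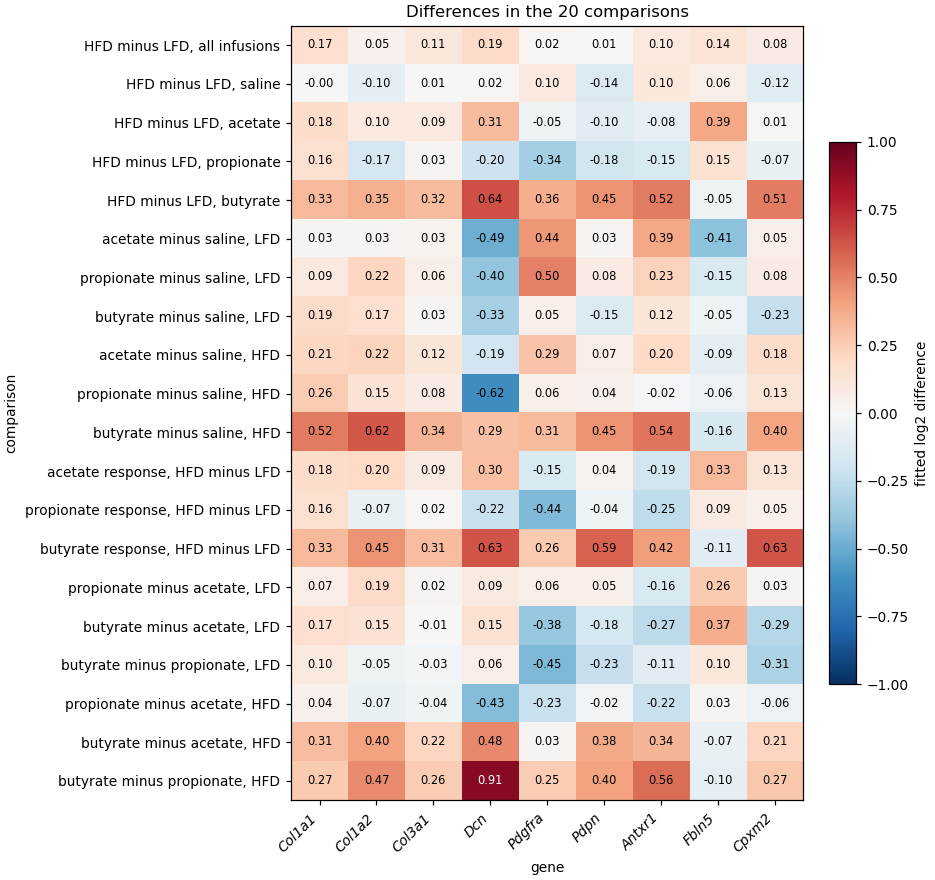
Fitted log2 differences (colour and printed value) of the 9 genes tested (columns) in the 20 comparisons (rows), red above 0 and blue below. The rows of butyrate against saline on HFD and of HFD against LFD under butyrate are red for all genes but Fbln5 (-0.16 and -0.05), and Dcn reaches 0.91 in butyrate minus propionate on HFD.

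The diets were compared over all 4 infusions and within each. Over all infusions HFD exceeded LFD by 0.01 for Pdpn to 0.19 for Dcn, so all 9 genes were above 0, with a median of 0.10, beside 0.01 over all genes, of which 52.4% were above 0. Without butyrate HFD replicate 1, Col1a2, Pdgfra and Pdpn were at or just below 0 (-0.01, -0.00 and -0.00). Without saline HFD replicates 1 and 2 Pdgfra and Pdpn were (-0.02 and -0.00), and the median was 0.06. None of the 9 passed adjusted p 0.05, against 345 of all 12795 genes (2.7%, with 1.53% higher and 1.16% lower), and 1 of the 9 and 2779 of all genes had an unadjusted p under 0.05. That gene was Fbln5, at 0.14 ± 0.0611 (interval 0.01 to 0.26, adjusted p = 0.187 in limma). Under butyrate HFD exceeded LFD by 0.52 for Antxr1 (0.24 to 0.80), 0.51 for Cpxm2 (0.23 to 0.78) and 0.45 for Pdpn (0.22 to 0.68), each with adjusted p = 1. The arrays of the 2 diets did not overlap for these 3 genes, HFD higher, against 1.7% of all genes. Col1a1, Col1a2 and Col3a1 differed there by 0.33, 0.35 and 0.32, and by 0.06, 0.14 and 0.13 without butyrate HFD replicate 1 or 0.58, 0.60 and 0.51 without replicate 4. No gene was called under butyrate (0%), with 3 of the 9 and 469 of all genes at unadjusted p under 0.05.

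Under propionate the members' median was -0.15, with 3 of 9 above 0, and none was called against 879 of all genes (6.87%, with 2.05% higher and 4.82% lower). At unadjusted p under 0.05 there were none of the 9 and 3124 of all genes. The largest of the 9 was Pdgfra, at -0.34 ± 0.230 (interval -0.81 to 0.13). Under acetate Fbln5 was the one gene of the 9 whose arrays did not overlap, HFD higher, against 4.22% of all genes. No gene was called under acetate or saline (0% in each), with 1 and 0 of the 9 and 986 and 932 of all genes at unadjusted p under 0.05. Under saline the 9 differences lay between -0.14 for Pdpn and 0.10 for Antxr1 and Pdgfra. Without the 4 arrays high in small-intestinal markers that of Pdpn was -0.31 and that of Fbln5 -0.11, against 0.06 with them.

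The genes also varied together between arrays of one group. After each group's mean was subtracted, Col1a1 and Col1a2 correlated over the 31 arrays at Pearson r = 0.943 and Spearman rho = 0.878, and Col1a2 and Col3a1 at r = 0.932 and rho = 0.894. Permutation within groups gave adjusted p = 9e-05 for both r and adjusted p = 0.000525 and 0.000225 for rho, over the 45 pairs. The unadjusted p of both r was 1e-05, the smallest that 100000 permutations can give. Without the 2 arrays farthest from the median, r was 0.914 and 0.894. The genes read on one array share its RNA, and with it any difference in which tissue was scraped. Dcn and Lum, neighbours on the chromosome, had r = 0.705, and Lum had r = 0.841 with Col1a2. Pdpn went with Col1a2 at r = 0.671 and Dcn with Antxr1 at r = 0.667. Pdgfra went with Antxr1 (r = 0.578) and Cpxm2 (r = 0.579), and less closely with the collagens (r = 0.25 to 0.44). Cpxm2 had r between -0.28 and -0.08 with the 3 collagens and Fbln5 had none past adjusted p 0.05 with any of the 10.

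**Figure D4:**
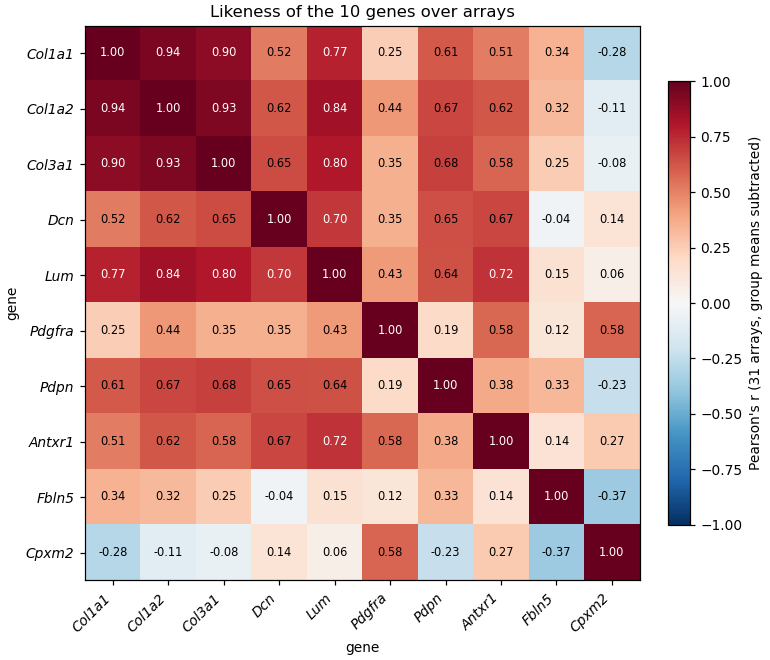
Pearson's r (colour and printed value) between each pair of the 10 genes over 31 arrays after subtracting each group's mean. The 3 collagens form a block of 0.90 to 0.94, with Lum at 0.77 to 0.84, while Cpxm2 has -0.28 to -0.08 with the collagens and 0.58 with Pdgfra.

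The stretch before the transcription start is shown for Col1a2 and Col3a1, a pair that varied together closely on different chromosomes. RefSeq windows on GRCm38.p6 matched 6 of the 10 genes by symbol: Col1a2, Col3a1, Pdgfra, Pdpn, Fbln5 and Cpxm2. Each sequence is the 250 bases upstream of the start, given 5′ to 3′ on the plus strand, at chr6:4505368-4505617 for Col1a2 and chr1:45311288-45311537 for Col3a1. Capitals mark the motifs searched on both strands: CCAAT, the site GGGCGG bound by Sp1-type factors, and the TATA box letters TATAAA. No marked motif overlaps another here.
Col1a2: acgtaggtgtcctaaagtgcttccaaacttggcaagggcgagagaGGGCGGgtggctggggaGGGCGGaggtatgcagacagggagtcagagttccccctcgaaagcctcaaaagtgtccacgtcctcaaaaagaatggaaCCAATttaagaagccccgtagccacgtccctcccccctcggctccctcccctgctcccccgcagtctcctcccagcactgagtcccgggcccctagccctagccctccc
Col3a1: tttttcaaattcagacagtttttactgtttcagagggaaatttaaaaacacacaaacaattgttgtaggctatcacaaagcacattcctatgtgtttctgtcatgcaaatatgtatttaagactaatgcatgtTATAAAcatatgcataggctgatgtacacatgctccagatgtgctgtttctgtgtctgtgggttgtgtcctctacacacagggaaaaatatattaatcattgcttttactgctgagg
Col1a2 held CCAAT starting at -109 and GGGCGG at -205 and -188, counted from the start site, and no TATAAA. Col3a1 held TATAAA at -117 and neither of the others. Of the 32851 windows of this length, 33.8% held CCAAT, 32.7% GGGCGG and 12.4% TATAAA. Fbln5 and Cpxm2 also held GGGCGG, Fbln5 held CCAAT at -150 too, and none of the 3 motifs was found for Pdgfra and Pdpn. The matches are a description of these letters, and the 2 collagens shared none of the 3 motifs.

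The genes whose variation over arrays was most like that of the 9, by mean r after subtracting group means, were Bgn (0.586), Sparc (0.577), Tnc (0.571), Col12a1 (0.563), Col6a1 (0.558), Loxl2 (0.551), Postn (0.541), Fstl1 (0.540), Col6a3 (0.538) and Col6a2 (0.537). The median of all 12786 genes compared was 0.009 and 1% of them lay above 0.357. Bgn encodes biglycan, a proteoglycan related to decorin. Sparc, Tnc and Postn encode the matricellular proteins osteonectin, tenascin C and periostin, Loxl2 a collagen crosslinking enzyme, and the Col6 genes the chains of type VI collagen. Without subtracting group means, 8 of these 10 again led, joined by Nid1 (0.550) and Vim (0.544). In butyrate HFD over saline HFD colons Sparc differed by 0.72 ± 0.357, Bgn by 0.57 ± 0.213, Postn by 0.57 ± 0.233, Fstl1 by 0.52 ± 0.185 and Col12a1 by 0.50 ± 0.151, each with adjusted p = 1 in limma. These are only some of the 10 genes, which were picked for following the 9 on these same arrays. Their differences are therefore descriptions, and values without butyrate HFD replicate 1 are not given for them.

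Another 9 lists of matrix and fibroblast genes, 144 in all, had 103 members tested. Over all infusions 2 of the 103 were called higher on HFD (1.94%, beside 1.53% of all genes), and none was called lower (beside 1.16%). In both directions together 2.7% of all genes were called. They were Bmp1, the protease that trims the C-terminal propeptide of fibrillar collagens, at 0.33 ± 0.0721 (adjusted p = 0.0199), and Timp2, an inhibitor of matrix metalloproteases, at 0.20 ± 0.0545 (adjusted p = 0.0469). Bmp1 was past the threshold in all 41 alternatives that tested it, with adjusted p up to 0.0429, and Timp2 in 14 of 41, with adjusted p up to 0.0973. Of the 103 genes 80 were above 0, with a median of 0.07. Under propionate 1 of 103 was higher on HFD (0.971%, beside 2.05% of all genes) and none lower (beside 4.82%). It was Col16a1, a fibril-associated collagen, at 0.27 ± 0.0822 (adjusted p = 0.0439, past the threshold in 28 of 40 alternatives and 0.146 without propionate HFD replicate 2). No list gene was called in any other comparison.

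In butyrate HFD over saline HFD colons, all 12 tested genes of basement membrane and interface matrix were above 0, with a median of 0.26. All 15 of the elastic fibre and matricellular list were above 0, with a median of 0.17. Without butyrate HFD replicate 1, 10 of 12 and 14 of 15 were above 0, with medians of 0.13 and 0.08, and without saline HFD replicate 3 the elastic fibre list had a median of 0.09. The 8 other fibrillar and fibril-associated collagens had 4 above 0 and a median of 0.01, with Col8a1 at -0.48 ± 0.243. The 12 fibroblast markers had 9 above 0 and a median of 0.08, with Dpep1 at -0.02 and Gsn, gelsolin, at -0.11. The 7 proteoglycans had a median of 0.05, the 10 processing genes 0.08, the 8 proteases and inhibitors 0.11, the 13 subepithelial niche factors 0.06 and the 18 PDGF and TGF-beta signalling genes 0.04, beside 0.02 over all genes.

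Markers of other cells were read on the same arrays. In butyrate over saline on HFD the 6 macrophage markers tested, of 9, were all above 0, with a median of 0.35, or 0.16 without butyrate HFD replicate 1. Their mean level was 6.31, 5.53, 5.74 and 5.56 in butyrate HFD colons, against 5.55, 5.31, 5.45 and 5.44 in saline HFD colons, and was highest on the array where the collagens were highest. The 9 blood endothelium markers tested, of 11, were all above 0, with a median of 0.20 (0.11 without butyrate HFD replicate 1, 0.12 without saline HFD replicate 4 and 0.32 without butyrate HFD replicate 2) and mean levels of 4.54 to 4.95, against 4.54 to 4.61. The 10 smooth muscle markers tested, of 12, were all below 0, with a median of -0.62, but 5 of 10 were above 0, with a median of 0.00, without saline HFD replicates 1 and 2. Their mean levels were 5.76, 5.50, 5.63 and 5.25 in butyrate HFD colons, against 6.75, 6.56, 5.25 and 5.69 in saline HFD colons. On the 2 saline arrays high in smooth muscle, Col1a1 read 5.87 and 5.89, against 5.93 and 6.29 on the other saline HFD arrays. Antxr1 and Lum were highest of saline HFD on those 2 arrays. Antxr1 read 4.96 and 5.01, against 4.47 and 4.75, and Lum 3.29 and 3.25, against 2.94 and 3.22. The 2 lymphatic endothelium markers tested, of 7, had a median of -0.03, and Lyve1 and Prox1 were at 0.00 and -0.06, while Pdpn was at 0.45. No marker was called in that comparison. The part of these cells in the values of the 10 genes was not tested.

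Over arrays, with group means subtracted, 110 pairs of a gene and another cell type's marker mean were compared. Antxr1 went with smooth muscle at r = 0.763 and rho = 0.759, with a permutation adjusted p = 0.0011 for r, and r = 0.757 without the 2 arrays farthest from the median. Dcn went with mesothelium, the outer lining of the gut wall, at r = 0.676 and rho = 0.675 (adjusted p = 0.0147, and r = 0.619 without 2 arrays). In all, 7 of the 110 pairs had r past adjusted p 0.05. The other 5 were Antxr1 with blood endothelium (r = 0.617) and pericytes (0.603), Lum with smooth muscle (0.574), and Col3a1 (0.662) and Dcn (0.644) with macrophages. Of these 5, rho passed only for Lum (rho = 0.590, permutation adjusted p = 0.0469), and the others had adjusted p = 0.0515 to 0.116 for rho.

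**Figure D5:**
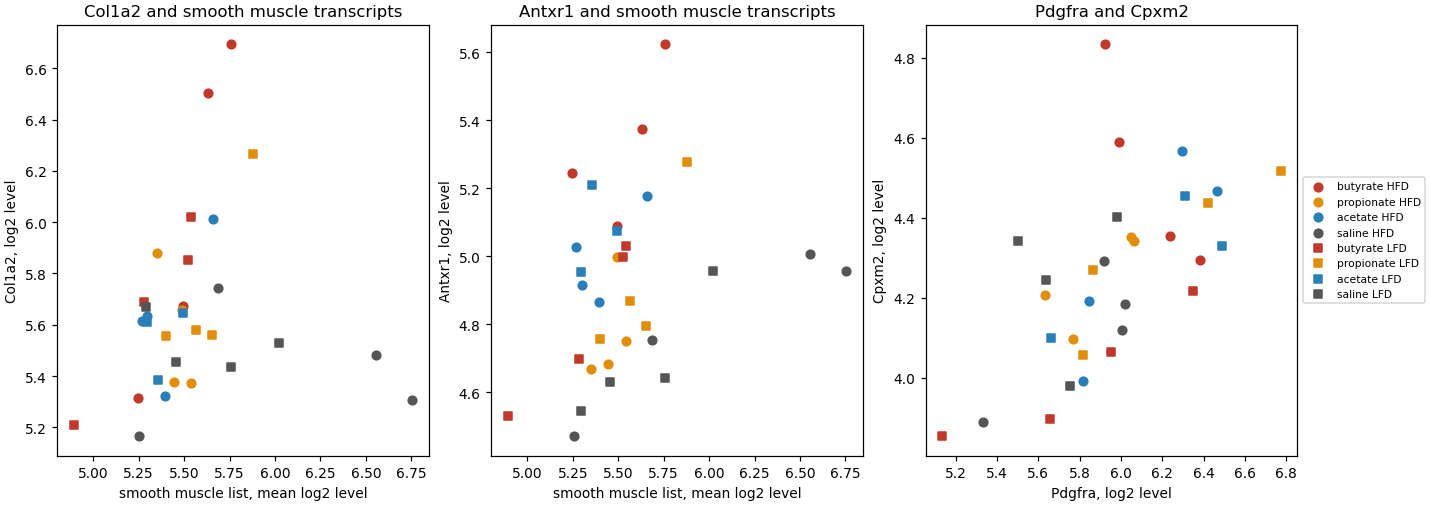
Log2 level, 1 point per array, of Col1a2 (left) and Antxr1 (middle) against the mean of the 10 smooth muscle markers, and of Cpxm2 against Pdgfra (right), with circles for HFD and squares for LFD and the infusion by colour. Saline HFD replicates 1 and 2 lie far right at 6.75 and 6.56, with Col1a2 at 5.31 and 5.48 and Antxr1 at 4.96 and 5.01. Cpxm2 and Pdgfra have r = 0.579 after group means are subtracted.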

How the data were processed

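The series held 31 arrays of scraped mouse colon, which were grouped by diet and infusion from the labels. The authors deposited 1 log2 value per probe set and array, normalised by RMA per the submitters' processing notes. RMA corrects background, sets all arrays to 1 distribution and summarises probes, so a shift common to most genes would not show. For the RMA version and the authors' genome build, the answer is: not given in the sources used here. Of 35556 probe sets, 21218 had 1 gene symbol in the platform annotation, 1881 had several and 12457 were not listed. The probe set with the highest mean stood for a gene. That left 18820 genes, of which 1386 had more than 1 probe set. Gene coordinates and upstream sequences came from RefSeq on GRCm38.p6.

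Genes reaching log2 4.32 on at least 3 arrays entered a limma model (version 3.58.1, R 4.3.3) of 1 mean per group with an intensity trend, in 20 comparisons. P-values were adjusted by Benjamini-Hochberg over 12795 genes in each, with a threshold of 0.05. The number of arrays limits the precision. The steps were tested on simulated data. Correlations used 100000 permutations of arrays within groups.

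The 10 genes and all lists were chosen with earlier results of these data known. All 10 genes were named in the text. Of each matrix list the genes past the threshold were named, and otherwise the 2 with the highest mean level. From each other cell type list the 2 with the highest mean could be named. The 10 genes with the highest mean correlation with the tested members were named too. The lists of pericytes, enteric glia, enteric neurons and adipocytes had medians of -0.10, 0.02, 0.04 and -0.21 in butyrate minus saline on HFD. Mesothelium had -0.13, colonic epithelium -0.02 and small-intestinal lipid absorption -0.35 there, the last being 0.01 without saline HFD replicate 2. Alternatives covered the filter, probe set choice, moderation, array weights, centring, the replicate block, the groups fitted and the arrays left out.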

Additional observations from a re-analysis of the deposited data

Results flagged for a closer look

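Each gene in each group of 4 arrays made 70 sets. In 4 of the 70 (5.71%), 1 array stood far from the others, a share near the 1 in 20 that chance gives for independent sets. These sets share arrays, and some of the genes vary together, so they are not independent. Col1a1 read 6.29 on saline HFD replicate 4, against 5.87 to 5.93 on the other 3 arrays. On propionate LFD replicate 3, Col1a1 read 6.62, against 5.86 to 5.96, and Col1a2 read 6.27, against 5.55 to 5.58. Pdgfra read 5.33 on saline HFD replicate 3, against 5.92 to 6.02.

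Cpxm2 had butyrate differences of opposite sign on the 2 diets. On HFD every butyrate array lay above the saline mean, a difference of 0.40, and on LFD every butyrate array lay below it, a difference of -0.23. The interaction was 0.63 with adjusted p = 0.999 in limma, which misses the threshold. On LFD the arrays of butyrate and saline overlapped, and the interval of the difference, -0.51 to 0.04, included 0. Cpxm2 reached the filter on only 13 of the 31 arrays.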

How the results depend on the processing

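None of the 9 tested genes was called in 19 of the 20 comparisons under any of the 42 alternatives. In butyrate minus propionate on HFD, where 0 were called, array weights called 2 (Pdpn and Antxr1) and the replicate block 1 (Antxr1, adjusted p = 0.0444). Leaving out 1 array at a time called 0 to 3, with 3 (Dcn, Pdpn and Antxr1) without propionate HFD replicate 1 and 1 (Antxr1) without saline LFD replicate 1. Whether the replicate numbers pair the arrays cannot be told from these values. Deviations from group means of arrays with the same number correlated at a mean of 0.041 over 105 pairs, from -0.497 to 0.472. Of these pairs 42 were over 0.1. Those with different numbers had a mean of -0.014 over 315 pairs, of which 86 were over 0.1. The block changed no other call on the 9 genes. Each member's difference stayed within 1 pooled SD of its value except in 9 of 7420 refitted values, all of Pdpn or Fbln5 without the 4 arrays high in small-intestinal markers.

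Counts over all genes moved more. HFD minus LFD over all infusions gave 345 calls, 1788 with array weights, 115 without saline HFD replicates 1 and 2, 561 without the 4 small-intestinal arrays, and 127 (without acetate LFD replicate 3) to 1027 (without saline LFD replicate 3) leaving out 1 array. Under propionate, 879 became 2652 with array weights, and 0 (without propionate HFD replicate 3) to 1731 (without propionate HFD replicate 1). Butyrate minus propionate on HFD, with 8, gave 937 with array weights, 64 with the replicate block, 53 with a stricter filter, 34 over all probe sets, 21 after centring, 2 with no trend, with robust moderation and without the 4 arrays, and 0 to 585 leaving out 1 array. Propionate minus acetate on HFD, with 0, gave 1202 with array weights, 72 with the block, 53 over all probe sets, 16 without the 2 saline arrays, 11 with the stricter filter and up to 147 leaving out 1 array. Propionate minus saline on HFD, with 0, gave 213 with array weights and 1 with the block, and its difference between diets 101 and 11, and up to 13 leaving out 1 array. The cause of these changes was not tested. The stricter filter kept 2 of the 9 genes, Col1a1 and Dcn. Lum, Fbln5 and Cpxm2 lie at or under the level where the arrays resolve differences well. Pdpn and Antxr1, with means of 4.91 and 4.92, also lay nearer the filter of 4.32 than the stricter level of 6.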

Other observations

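Cd93, a surface protein of blood endothelium and the one endothelial marker past the threshold in any comparison, was higher on HFD over all infusions by 0.21 ± 0.0503 (adjusted p = 0.0249 in limma), and had adjusted p up to 0.0567 over 40 alternatives, 36 of which called it. Among the genes closest to single members after group means were subtracted, a description chosen after the values were seen, Pdgfra was nearest to Cxcl12 (r = 0.847), the chemokine that fibroblasts secrete, and to Bmp5 (r = 0.834). Antxr1 was nearest to Acta2 (r = 0.785) and Myh11 (r = 0.772), contractile proteins of smooth muscle. Dcn was near Aebp1 (r = 0.797), a collagen-binding protein, and Fn1 (r = 0.791), fibronectin, followed by Slfn8 (r = 0.768). Not every member had matrix or muscle genes nearest. Pdpn was nearest to Gsr (r = 0.810) and Jpt2 (r = 0.809), and Cpxm2 to Galc (r = 0.763). Among genes with a descriptive name, Fbln5 was nearest to Mrpl37 (r = 0.707).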
